A study of Mus musculus with 2 samples.

Results

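Follicular B cells were examined in 2 single-cell RNA libraries made from mediastinal lymph nodes (MedLNs), the nodes that drain the lung, of wild-type C57/B6J mice with ovalbumin (OVA)-induced asthma. Both groups of mice were sensitised with OVA in alum and then challenged with OVA through the nose. 1 library came from mice that were given no butyrate (w/o Butyrate) and 1 from mice that also received butyrate (w/ Butyrate), and each library pooled 4 mice. The mice of the study were aged 5 to 13 weeks. There was no group without OVA, and the route by which these particular mice received butyrate was not given in the sources used here. The cells were chosen by their UMI (unique molecular identifier, 1 counted RNA molecule) counts of 15 genes. A cell had to carry 2 or more UMIs of Cd79a and Cd79b together, 1 or more of Fcer2a and 1 or more of Ighd, and none of Cd3d, Cd3e, Cd3g, Jchain, Mki67 or Top2a, and at most 1 of the 5 activation genes Myc, Egr2, Egr3, Nfkbid and Nr4a1 could be detected. This left 1977 of 9495 kept cells w/o Butyrate and 1961 of 8605 w/ Butyrate, 3938 of 18100 in all. Their summed depth was 9441925 and 9786880 UMIs, with a median of 4301 and 4513 UMIs per cell. With 1 library per condition no difference between conditions could be tested, every interval given here is a 95% interval that covers counting error only, and spread between mice is not in it.

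Follicular B cells are the main resting B cells of a lymph node. They recirculate between blood and the B cell follicles, display IgM and IgD of a single specificity, and carry CD21 and CD23, the latter being the low-affinity receptor for IgE encoded by Fcer2a. On meeting antigen and T cell help they enter germinal centers or become antibody-secreting cells, and in allergic responses interleukin 4 (IL-4) drives their switch to IgG1 and IgE.

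The values that chose the cells are given as a description. Fcer2a stood at 486 CPM (UMIs scaled to a common total per library) w/o Butyrate and 556 CPM w/ Butyrate in the chosen cells, with a median of 2 UMIs per cell in both libraries. The lower edge of the rule was well populated, because 38.04% of the chosen cells w/o Butyrate and 30.1% w/ Butyrate held exactly 1 Fcer2a UMI. Just outside it lay 838 and 586 cells that met every other condition but had no Fcer2a UMI. Ighd had a median of 5 UMIs in both libraries, at 1032 and 1150 CPM. Cd79a and Cd79b, the signaling chains of the B cell receptor, were far above their limit at 3079 and 3082 CPM for Cd79a and 1858 and 1940 CPM for Cd79b. At the other edge, 869 and 944 chosen cells had 1 activation gene detected, and 405 and 495 cells were left out with exactly 2.

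Follicular B cells made up 20.8% of kept cells w/o Butyrate (20.01 to 21.7, exact binomial interval) and 22.8% w/ Butyrate (21.9 to 23.7), a log2 ratio of 0.13 (0.05 to 0.21). Among B cells, of which there were 4099 and 3816, they made up 48.2% and 51.4%, a log2 ratio of 0.09 (0.03 to 0.16). Both ratios depended on the rule. With no limit on activation genes the share of kept cells was 26.9% and 31.6%, and with no activation gene allowed it was 11.7% and 11.8%. When every cell was first thinned to 2000 UMIs, the chosen cells were 15.1% and 19.2% of kept cells. Among B cells the share was 27.03% and 26.65% with no activation gene allowed, which turned its direction, and 27.15% and 33.83% with 2 or more UMIs of Fcer2a and of Ighd. Among the steps of the rule, Fcer2a was detected in 70.9% of the B cells without Jchain, Mki67 and Top2a w/o Butyrate and in 77.4% w/ Butyrate, and in 46.6% and 54.0% of them after thinning. Cells with 2 or more activation genes were 22.6% and 27.9% of the B cells that carried both Fcer2a and Ighd, a log2 ratio of 0.30 (0.17 to 0.44). After thinning these were 8.285% and 9.42%, and the interval of their ratio, from -0.13 to 0.50, included 0.

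**Figure D1:**
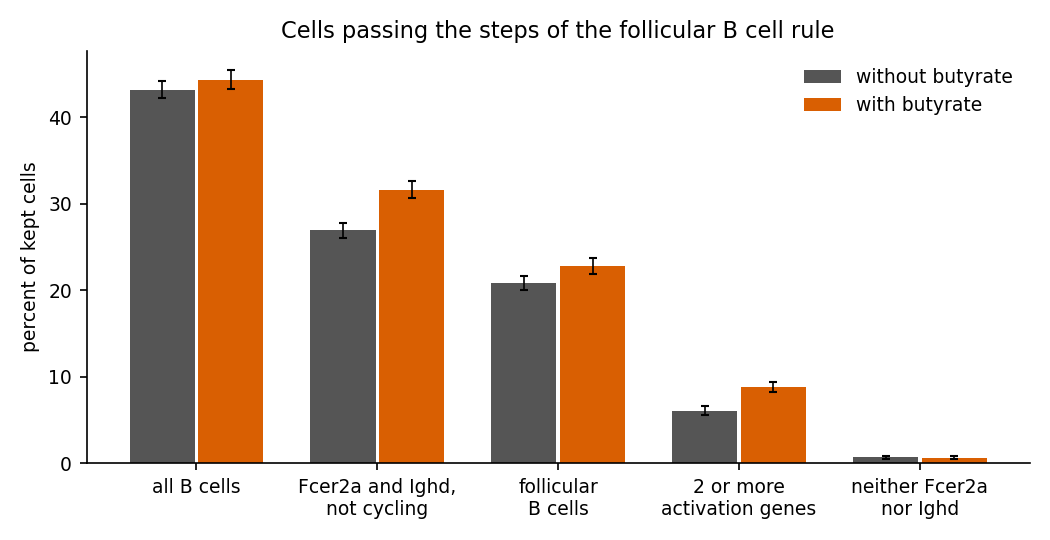
Percent of kept cells (vertical axis) in each library for all B cells, B cells with Fcer2a and Ighd but no Jchain, Mki67 or Top2a, follicular B cells, cells with 2 or more activation genes, and B cells with none of Fcer2a, Ighd, Jchain, Mki67 and Top2a (neither Fcer2a nor Ighd); bars give the share and error bars its exact binomial 95% interval. Follicular B cells were 20.8% of kept cells w/o Butyrate and 22.8% w/ Butyrate.

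Of the marker genes that the rule did not use, several B cell genes were widely detected. The B lineage factor Ebf1 had a UMI in 99.1% and 99.0% of follicular B cells, against 3.29% and 2.55% of T cells in the same libraries (cells with 2 or more Cd3 UMIs and no Cd79a or Cd79b UMI). Ms4a1, encoding CD20, was found in 95.6% and 95.9% of them and in 2.90% and 2.29% of T cells. Cr2, encoding the complement receptor CD21, was found in 51.3% and 52.2%. Genes listed for antigen-experienced B cells ranged from absent to common. Of the germinal center list, Mybl1, S1pr2, Rgs13 and Gcsam were each in under 1% of cells. The most abundant gene of that list was Bcl6, at 23.2 and 26.5 CPM and in 9.56% and 11.4% of cells. Sdc1, the plasma cell surface marker CD138, was detected in 0.708% and 0.357% of the cells but Xbp1 and Irf4, factors of plasma cell differentiation, in 17.5% and 20.4% and in 17.2% and 19.5%. Of the memory list, Cd80 was in 1 cell of both libraries together, while Cd38, an ectoenzyme, was in 48.3% and 52.8% of the cells, the chemokine receptor Ccr6 in 35.8% and 36.9% and Pdcd1lg2 in 10.7% and 10.6%.

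Markers of other resting B cells were mixed. S1pr3, which holds cells in the marginal zone, was in 1.21% and 1.02% of follicular B cells, and Cd9 in 1.87% and 1.38%. Other genes of the marginal zone list were more widely detected, Tm6sf1 in 21.5% and 22.3%, the Notch regulator Dtx1 in 15.7% and 15.9% and the lipid-presenting Cd1d1 in 7.69% and 7.90%. Mzb1, a chaperone listed for marginal zone and plasma cells, was the most abundant gene of both lists at 348 and 325 CPM. It had a UMI in 69.4% and 70.9% of follicular B cells. Of the transitional markers, Cd93 was in 2.53% and 2.45% of follicular B cells and Rag1 was at 0 in those of both libraries. Vpreb3, which is highest in immature B cells, was nevertheless in 57.9% and 66.1% of the cells, and Cd24a in 44.0% and 49.7%. Of the B1 list Cd5 was in under 1% of cells in each library, Bhlhe41 in 1.21% and 2.60%, Ahnak in 2.53% and 3.21%, and S100a6, its most abundant gene, in 6.47% and 6.99%.

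Markers of T and natural killer cells were low in sum, and the myeloid and stromal lists held genes at both ends. The T cell receptor gene Trac was in 2.33% and 2.04% of follicular B cells against 89.8% and 93.1% of T cells, and the 12 T cell markers summed to 73.6 and 77.1 CPM, led by Lck. Lck had a UMI in 11.3% and 10.8% of follicular B cells, and Trbc2 in 6.47% and 7.14%. The natural killer list summed to 4.77 and 8.28 CPM, with Ncr1 and Klra8 at 0. The 12 myeloid markers summed to 634 and 489 CPM. Apoe, the lipid carrier apolipoprotein E, was the most abundant of them, at 348 and 221 CPM. Cst3, the secreted protease inhibitor cystatin C, was next at 234 and 225 CPM, with a UMI in 58.7% and 60.7% of follicular B cells and in 37.5% and 40.7% of T cells. Tyrobp, a signaling adaptor, was in 10.1% and 13.4%, against 0.975% and 1.34% of T cells. Csf1r, C1qa, C1qb, Itgax, Xcr1 and S100a8 of the same list were each below 1 CPM in follicular B cells of both libraries, and Siglech was at 0 there. Of the stromal and red cell list the adhesion molecule Pecam1 was the most abundant, in 29.0% and 33.2% of follicular B cells and 25.5% and 28.5% of T cells, and Pdpn was at 0. Apoe had a UMI in 42.0% and 32.6% of follicular B cells but in 3.37% and 2.81% of T cells of the same libraries. Red cell RNA differed between the libraries, with Hbb-bs at 0.530 and 4.39 CPM, and its part in the results was not tested.

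**Figure D2:**
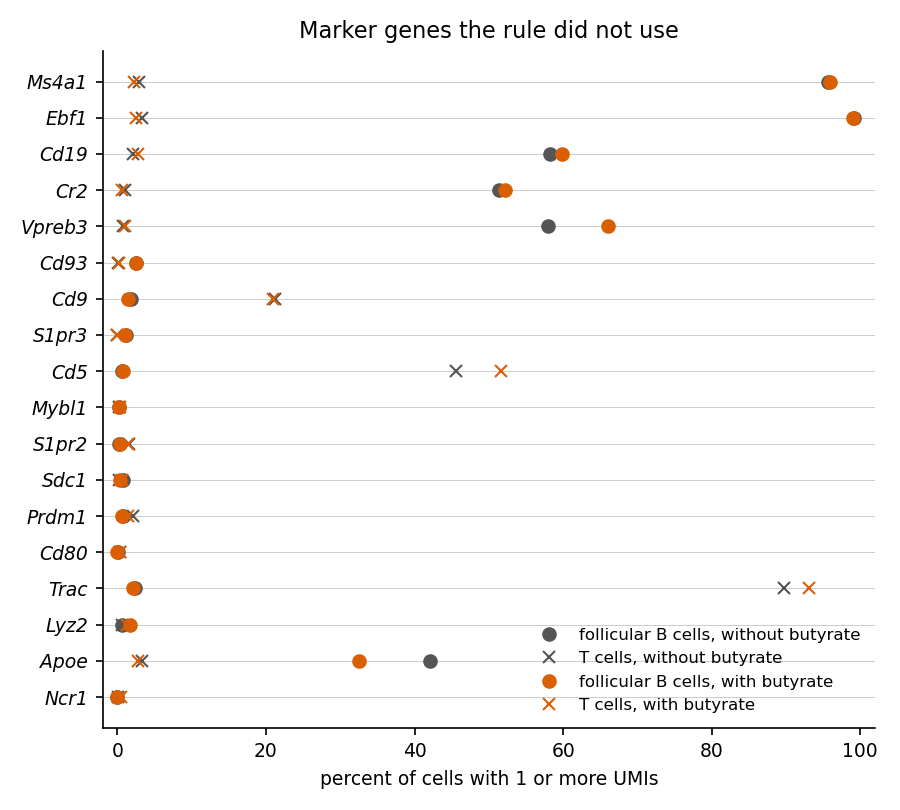
Percent of cells with 1 or more UMIs (horizontal axis) of marker genes that the rule did not use, in follicular B cells (filled circles) and T cells (crosses) of each library. Ebf1 and Ms4a1 were in over 95% of follicular B cells, and Apoe was in 42.0% and 32.6%. The germinal center, plasma, natural killer and T cell genes plotted lay near 0 in them. Not every list member is plotted, and some of those left out were in more cells. Among these were Mzb1 (69.4% and 70.9%), Cst3 (58.7% and 60.7%), Xbp1 (17.5% and 20.4%), Lck (11.3% and 10.8%) and Bcl6 (9.56% and 11.4%).

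Heavy chain RNA was mostly of unswitched genes. Ighm, the IgM heavy chain, had a UMI in 99.9% of the cells of each library, against a background of 68.2% and 72.4% of T cells. It stood at 2364 and 2446 CPM, and 9.36% w/o Butyrate and 10.7% w/ Butyrate held more Ighd than Ighm UMIs. A UMI of Ighg1, the IgG1 heavy chain, was found in 8.65% of follicular B cells w/o Butyrate and 0.510% w/ Butyrate. The same gene was found in 10.3% and 0.196% of T cells, which do not make it, at median depths of 5601 and 6553 UMIs in T cells and 4301 and 4513 in follicular B cells. The follicular share was below that of T cells w/o Butyrate and above it w/ Butyrate, on 10 and 6 cells. Ighg2c had a UMI in 5.92% and 0% of follicular B cells and in 6.35% and 0% of T cells. The 0 of 1961 cells allows a share of cells with a UMI of up to 0.153%. Igha, the IgA heavy chain, was in 3.09% and 3.93% of follicular B cells and 1.17% and 2.02% of T cells. Follicular B cells with 10 or more UMIs of any switched gene numbered 2 and 1, and Ighe, the IgE heavy chain, was at 0 in follicular B cells of both libraries. Igkc, the kappa light chain, was in 97.7% and 97.1% of the cells, against a background of 53.4% and 38.4% of T cells.

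Lambda light chain RNA was widespread. Iglc2 had a UMI in 95.9% and 96.6% of follicular B cells and Iglc3 in 92.6% and 93.9%, against about 5% of T cells or fewer (4.82% and 4.997% for Iglc2, 4.04% and 3.79% for Iglc3). Iglc2 and Iglc3 are near-identical copies, and how the counting split their reads is uncertain. Cells with more lambda than kappa UMIs, among those with 10 or more light chain UMIs, were 9.84% w/o Butyrate (8.56 to 11.2) and 9.11% w/ Butyrate (7.87 to 10.5). Few cells could be assigned a light chain by a stricter measure, since 4.61% and 4.76% of them had at least 90% lambda UMIs, 11.9% and 9.37% at least 90% kappa UMIs, and 83.5% and 85.9% neither. A heavy chain variable segment was seen in 34.0% and 34.9% of the cells. The commonest leading segment was Ighv1-18 in 40 of 672 such cells w/o Butyrate and Ighv1-26 in 42 of 684 w/ Butyrate, so no segment led in more than 6.14% of them.

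Light chain and early response genes were among those that varied most from cell to cell. After thinning to 2000 UMIs, which kept 1963 and 1954 cells, the variance of UMIs over their mean had a median of 1.04 and 1.05 over 3990 genes, where 1 is counting noise alone, and 70 genes exceeded 1.5 in both libraries. Ranked by the smaller value of both libraries, Iglc1 had the highest ratio, 11.1 w/o Butyrate and 11.7 w/ Butyrate, followed by the nuclear RNA Malat1 and by Igkc. Klf2, the factor that keeps lymphocytes quiescent and recirculating, reached 3.29 and 3.19. It had 10 or more UMIs in 5.30% and 5.48% of thinned cells although its median was 2. Fos, Jun, Junb and Jund, subunits of the early response factor AP-1, were all among the 15 most variable genes. Apoe reached 3.79 and 2.84, with 5 or more UMIs in 4.33% of thinned cells w/o Butyrate and 1.89% w/ Butyrate. Ifi27l2a, a mitochondrial protein induced by interferon, and Samsn1, an adaptor that damps B cell receptor signals, were also in this set.

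The comparison w/ Butyrate over w/o Butyrate was made on the UMIs summed over the cells of each library, as the log2 ratio of CPM plus 1. Of 6738 genes with a mean of 10 CPM or more that the rule did not use, 30 (0.445%) were called higher w/ Butyrate, meaning a log2 ratio of 0.5 or more, and 35 (0.519%) were called lower, at -0.5 or less. The median over all of them was 0.05, and 63.7% of them lay above 0, which is the background for the counts above 0 given for each list. Most of the genes past this line had low counts. With a mean of 50 CPM required, Pim1 was the only gene called higher, and 9 genes were called lower. The balance of the counts also turned, with 139 higher and 91 lower after thinning to 2000 UMIs and 140 and 68 with no activation gene allowed. In T cells the same 6738 genes gave 10 higher and 82 lower with a median of 0.003.

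Genes of the interferon response were the clearest group on the low side. Of the 31 listed genes 25 were measured, 11 of them were called lower and none higher, and 23 lay below 0. Their median log2 ratio was -0.40, beside 0.05 for all genes. Ifi27l2a had 809 CPM (791 to 827, exact Poisson interval) w/o Butyrate and 453 CPM (439 to 466) w/ Butyrate, a log2 ratio of -0.84 (-0.89 to -0.78). Ifi213, a DNA sensor of the PYHIN family, stood at 72.0 CPM (66.7 to 77.6) and 38.1 CPM (34.3 to 42.2), a log2 ratio of -0.90. The antiviral effector Isg15 had 30.4 and 15.3 CPM, with 6.27% of its UMIs w/o Butyrate in a single cell, and Rtp4 had 30.4 and 13.7 CPM. Irf7, the transcription factor that amplifies interferon production, had 37.8 and 21.97 CPM. Stat2 and Ly6e were the exceptions above 0, at 0.06 and 0.05, and the 12 genes of interferon receptors and signaling had a median of 0.02 with none called.

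The difference was also seen in the share of cells that carried these UMIs. In thinned cells the 31 genes together gave a mean of 10.4 UMIs w/o Butyrate and 8.67 w/ Butyrate. 10 or more of these UMIs were present in 44.5% of cells (42.3 to 46.7) w/o Butyrate and 32.4% (30.4 to 34.6) w/ Butyrate. Ifi27l2a had a UMI in 60.6% and 41.0% of thinned cells. The median over the same 25 genes was -0.68 in T cells and -0.58 in cells with 2 or more activation genes, all from the same 2 libraries.

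Promoter sequences are shown for interferon list genes because the interferon-stimulated response element is the feature these genes are known to share. RefSeq promoters (GRCm38.p6, 250 bases before to 50 after the start, the build of the count files) matched 22 of the 31 genes, and 13 of these 22 (59.1%) held GAAANNGAAA on either strand in at least 1 of their promoters, compared with 3.99% of all 27025 genes. 60 bases are printed 5′ to 3′ on the strand of each gene, with every match in capitals. The regions are chr4:156200850-156200909 for Isg15, chr1:173599311-173599370 for Ifi213, chr11:82951922-82951981 for Slfn5 and chr8:71537562-71537621 for Bst2, all with log2 ratios below 0, and chr10:128270251-128270310 for Stat2, whose ratio was above 0. They were chosen after their values were seen. Slfn5 lies on the plus strand, as does Stat2, and the others on the minus strand.
Isg15: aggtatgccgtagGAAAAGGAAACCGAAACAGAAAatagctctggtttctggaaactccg
Ifi213: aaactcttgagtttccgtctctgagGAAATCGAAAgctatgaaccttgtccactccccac
Slfn5: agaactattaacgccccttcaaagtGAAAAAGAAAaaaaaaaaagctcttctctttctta
Bst2: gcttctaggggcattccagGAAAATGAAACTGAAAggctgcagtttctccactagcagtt
Stat2: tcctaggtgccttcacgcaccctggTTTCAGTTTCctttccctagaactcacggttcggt
Overlapping copies gave the longer capital runs of Isg15 and Bst2. Slfn5 stood at 60.6 and 40.4 CPM, Bst2, the tetherin that holds virus at the cell surface, at 89.3 and 67.3 CPM, and Stat2 at 32.5 and 33.8 CPM. A match in these letters is a description of the promoter, not a binding site.

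Chaperones and MHC class I genes also lay below 0. Of 9 heat shock genes measured 8 were below 0, with a median of -0.18 and 1 called lower. The median was -0.10 with no activation gene allowed in the cells, where Hsp90ab1 turned from -0.05 to 0.016, and -0.074 over genes with a mean of 2 CPM or more. Hsph1, a co-chaperone of HSP70, had 53.2 and 36.9 CPM, Dnaja1 had 432 and 307 CPM, and Hspa8, the constitutive HSP70, had 1101 and 892 CPM. Hspa5 of the endoplasmic reticulum was the exception at 344 and 386 CPM. The T cell median over these genes was -0.20. Of 17 MHC class I presentation genes 14 were below 0 with a median of -0.13 and none called. The largest difference among them was in H2-Q7, a class Ib gene of a family of near-identical copies that the counting may split, at 345 and 247 CPM, a log2 ratio of -0.48 (-0.56 to -0.41). The class I heavy chain H2-K1 had 1382 and 1171 CPM.

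**Figure D3:**
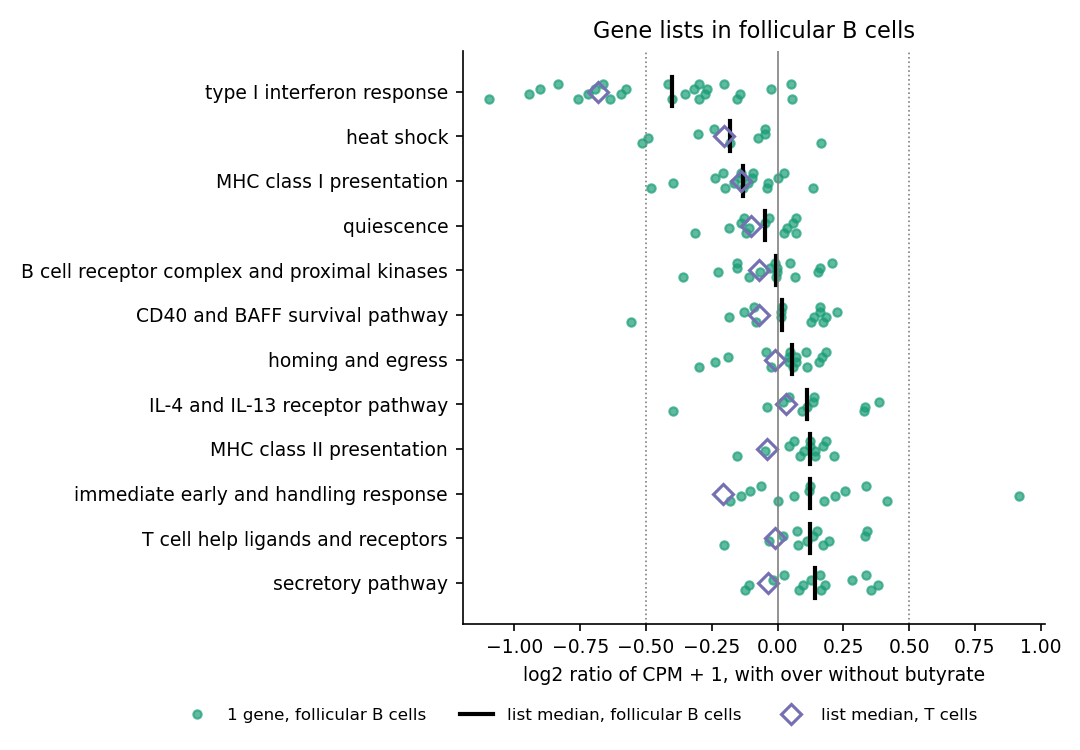
Log2 ratio of CPM plus 1, w/ Butyrate over w/o Butyrate (horizontal axis), of each measured gene (circles) of 12 lists in follicular B cells, with the list median there (black bar) and in T cells of the same libraries (open diamonds); dotted lines mark -0.5 and 0.5. The interferon list lay lowest, with a median of -0.40, and the secretory list highest, with a median of 0.14.

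MHC class II genes lay slightly above 0, where class I lay below. Of 13 measured 11 were above 0, none was called, and the median was 0.12, compared with -0.04 in T cells. H2-Ab1, a chain of the I-A molecule that presents peptide to CD4+ T cells, had 4427 and 4887 CPM, a log2 ratio of 0.14 (0.12 to 0.16). Ciita, the master regulator of these genes, had 283 and 322 CPM, a log2 ratio of 0.18 (0.11 to 0.26). H2-DMb1, which loads peptide, had 162 and 188 CPM. Ctss and Lgmn, the proteases of the pathway, were the 2 genes below 0, and both their intervals reached 0.

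The IL-4 and IL-13 receptor pathway showed a few larger differences among genes near 0. Of 11 genes measured 9 were above 0, with a median of 0.11 and none called. The median was 0.05, that of all genes, with 2 or more UMIs of Fcer2a and Ighd required, and 0.23 over genes with a mean of 50 CPM. Il4i1, an amino acid oxidase that IL-4 induces in B cells, had 153 CPM (146 to 162) w/o Butyrate and 201 CPM (192 to 210) w/ Butyrate, a log2 ratio of 0.38 (0.29 to 0.49). Il4ra, the receptor chain, had 75.1 and 94.8 CPM, a log2 ratio of 0.33 (0.19 to 0.48), and Socs3, a feedback inhibitor of cytokine signals, had 48.9 and 61.7 CPM. Stat6, the factor that the receptor activates, stood at 43.85 and 45.2 CPM, a log2 ratio of 0.04 (-0.15 to 0.24). Irs2, an adaptor of the receptor, was the lower of the 2 genes below 0, with 48.7 and 36.8 CPM and a log2 ratio of -0.40 (-0.61 to -0.20). Il13ra1 had 6 UMIs or fewer in each library and was not measured. Fcer2a, itself a known target of IL-4, was used by the rule, so its log2 ratio of 0.19 is a description.

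The Fcer2a promoter is shown for that reason. RefSeq gives 3 starts for the gene, and only the promoter at chr8:3690812-3691111, on the minus strand, held TTCNNNNGAA, the spacing that STAT6 is known to bind, which is the same on both strands and is present in 8.01% of all genes. The 60 bases printed lie at chr8:3690995-3691054, with the match in capitals.
Fcer2a: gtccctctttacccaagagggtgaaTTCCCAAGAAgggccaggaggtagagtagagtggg
None of the other genes of this pathway list held these letters in the window, and Il4i1 and Il4ra were among those without them.

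Of 14 immediate early and handling response genes measured 10 were above 0 in follicular B cells, a share near that of all genes, with a median of 0.12. With 1 library per condition, handling cannot be told apart from condition, and its part was not tested. In T cells 11 of the 14 were below 0, with a median of -0.21. Egr1, an early factor downstream of the B cell receptor, had 30.9 CPM (27.5 to 34.7) w/o Butyrate and 59.3 CPM (54.5 to 64.3) w/ Butyrate, a log2 ratio of 0.92 (0.73 to 1.15), and a UMI in 7.84% and 12.2% of cells. A single cell held 6.16% of its UMIs w/o Butyrate. Egr1 is a relative of Egr2 and Egr3, which the rule limited. Zfp36, which destabilises cytokine messages, had 280 and 373 CPM, a log2 ratio of 0.41 (0.34 to 0.49). Fosb had 103 and 130 CPM, and Fos had 532 and 601 CPM with a log2 ratio of 0.18, beside -0.34 in T cells. Jun and Dusp1 were below 0, at -0.06 and -0.18. In thinned cells, 10 or more UMIs of the list were present in 49.4% of cells w/o Butyrate and 59.0% w/ Butyrate.

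Of 10 activation markers measured 6 were above 0, with a median of 0.05, as for all genes, and 1 was called higher. Cd83, which stabilises surface MHC class II, had 293 CPM (283 to 305) and 379 CPM (367 to 392), a log2 ratio of 0.37 (0.30 to 0.44). Pim1, a kinase induced by cytokines, had 55.2 CPM (50.5 to 60.1) and 78.5 CPM (73.0 to 84.2), a log2 ratio of 0.50 (0.35 to 0.67), and led the 12 highest genes at 50 CPM or more with under 5% of UMIs in a single cell. Cd69, an early activation receptor, and the costimulator Cd86 were near 0, at 0.08 and -0.03, and Nfkbia and Rel of the NF-kappa-B pathway were below it, at -0.09 and -0.13. Samsn1 had 250 and 332 CPM, a log2 ratio of 0.41, while in T cells Samsn1 had a log2 ratio of -0.62 and Pim1 of -0.32.

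The secretory pathway had the highest median of the 12 pathway lists plotted. Of 14 genes 11 were above 0 with a median of 0.14 and none called, beside -0.04 in T cells. Atf4, a factor of the integrated stress response, had 131 and 172 CPM, a log2 ratio of 0.38. Calr, the lectin chaperone calreticulin, had 307 and 392 CPM, a log2 ratio of 0.36 (0.29 to 0.43). Sdf2l1 had 45.7 and 57.9 CPM. Sec61b and Sec61g, small subunits of the translocon, lay below 0 at -0.12 and -0.11. Rbm3 and Cirbp, RNA-binding proteins induced by mild cold, were both among the 12 highest. Rbm3 had 551 CPM (536 to 567) and 735 CPM (718 to 753), a log2 ratio of 0.41, and Cirbp had 109 and 144 CPM, a log2 ratio of 0.40. In T cells they stood at 0.27 and 0.15. St6gal1, which makes the sialic acid ligand of CD22, had 51.4 and 71.1 CPM, a log2 ratio of 0.46, and Cd22 itself, an inhibitory coreceptor, had 247 and 290 CPM. The highest 12 also held Gapvd1, Gadd45g and Ppp1r14b, between 0.39 and 0.44.

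Outside the interferon and chaperone groups the lowest genes had varied roles. Apoe, with 348 CPM (337 to 360) and 221 CPM (211 to 230), had a log2 ratio of -0.66 (-0.74 to -0.58). Zfp36l2, a relative of Zfp36 that holds B cells quiescent, had 372 and 240 CPM, a log2 ratio of -0.63. Sesn1, a stress-induced inhibitor of mTOR signaling, had 120 and 80.5 CPM. Ppp1r21 had 57.0 and 39.7 CPM. Interferon-inducible genes of the lowest 12 also included Ifi47 and Ifi206, at -0.64 and -0.52. All 12 were below 0 in T cells too, and 8 of the 12 highest were above 0 there. Ighg1 was 1 of the 35 called lower, and its log2 ratio was -3.19 in follicular B cells and -3.88 in T cells.

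**Figure D4:**
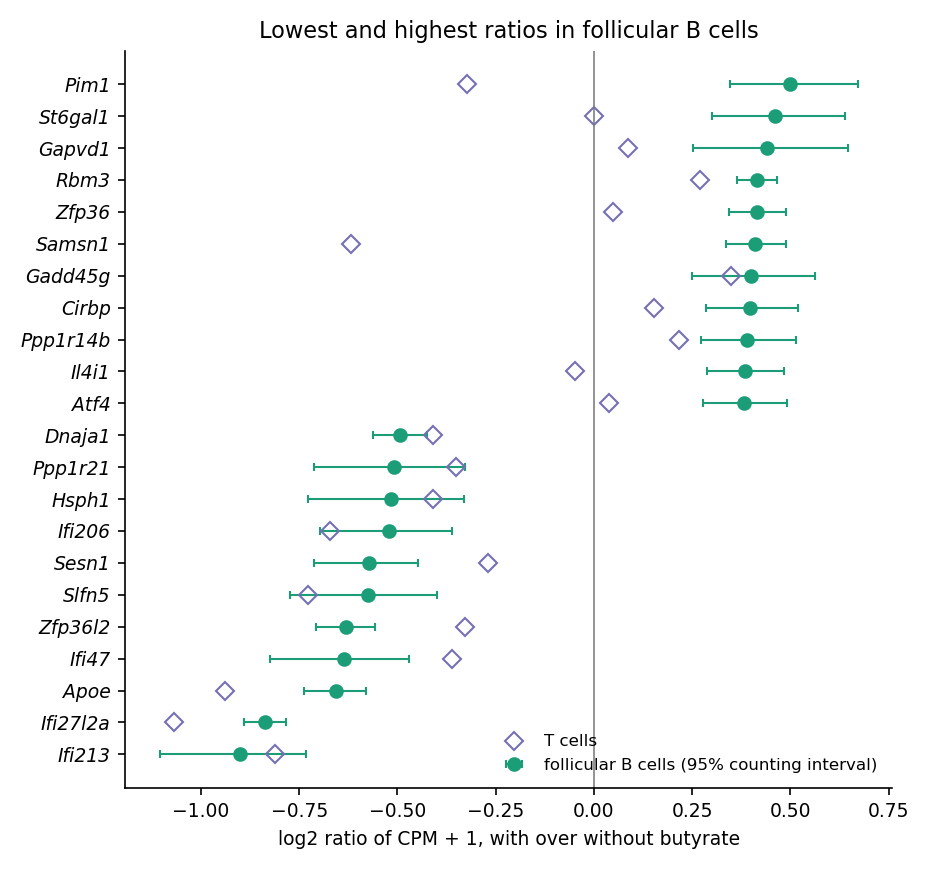
Log2 ratio of CPM plus 1, w/ Butyrate over w/o Butyrate (horizontal axis), of genes among the 12 lowest and the 12 highest in follicular B cells with their counting intervals (filled circles), and of the same genes in T cells (open diamonds). Pim1 and Samsn1 lay above 0 in follicular B cells and below 0 in T cells.

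The receptor machinery and identity genes stood close to the all-gene median. The 16 genes of the B cell receptor complex and its kinases had a median of -0.01 and the 18 B cell transcription factors 0.02, with none called. Among 16 homing and egress genes, with a median of 0.05 and none called, the chemokine receptor Ccr7, which guides cells to the T zone border, had 157 and 127 CPM and a log2 ratio of -0.30 (-0.41 to -0.19), and Cxcr5, which guides them into follicles, had 65.1 and 74.1 CPM and a log2 ratio of 0.18 (0.03 to 0.34). In the CD40 and BAFF survival list 1 of 15 genes was called lower, the pro-apoptotic Bcl2l11 with 34.7 and 23.3 CPM. Tnfrsf13c, the BAFF receptor, was at 311 and 314 CPM. Of the 12 T cell help genes 10 were above 0 with a median of 0.12 and none called, among them Slamf1 at 35.7 and 45.5 CPM and Icosl, the ligand of ICOS, at 91.6 and 105 CPM. Among the coreceptors Ifitm3, an interferon-induced gene, was the only gene called lower, at 19.5 and 7.87 CPM, with up to 15.6% of its UMIs in a single cell. The 13 quiescence genes had a median of -0.05, the 9 Toll-like receptor genes 0.04 and the 13 glycolysis genes 0.02, and the 93 cytosolic ribosomal proteins had a median of -0.05, all with none called.

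Receptors of butyrate were scarcely seen in the RNA. The receptor Ffar2 had a UMI in 1.92% and 1.84% of follicular B cells, against 0.139% and 0.327% of T cells. In follicular B cells Ffar3 had 5 and 7 UMIs, and the receptor Hcar2, the transporter Slc5a8 and the olfactory receptor Olfr78 were at 0 in both libraries. The 8 measured histone deacetylases, enzymes that butyrate inhibits, had a median of 0.04 with none called, Hdac1 being the most abundant at 77.8 and 90.7 CPM.

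Cells with 2 or more activation genes, 577 w/o Butyrate and 757 w/ Butyrate, differed from follicular B cells by 1 part of the rule. Over 2382 other genes, 1 was lower in follicular B cells by a log2 ratio of 1 or more in both libraries, Egr1 at -2.02 and -1.55, and none was higher by as much. Bcl2a1b, a survival gene, was next, at 79.3 CPM against 194 CPM w/o Butyrate and 80.1 against 157 CPM w/ Butyrate. By the smaller ratio of both libraries, the cyclin gene Ccnd2 followed with log2 ratios of -0.88 and -0.81, and then Marcksl1 with -1.07 and -0.72. Irf4, which rises with receptor signal strength, came after them with -0.91 and -0.70. Genes higher in follicular B cells differed by less. Iglc1 led by the smaller ratio, at 0.44 and 0.37, though not in either library alone. The cell cycle inhibitor Cdkn1b and Txnip, which limits glucose uptake, were among the 12 highest. The activated cells were deeper, with medians of 5075 and 5423 UMIs, and the part of depth was not tested. No test stands behind these values, since the same cells were split on the same counts.

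**Figure D5:**
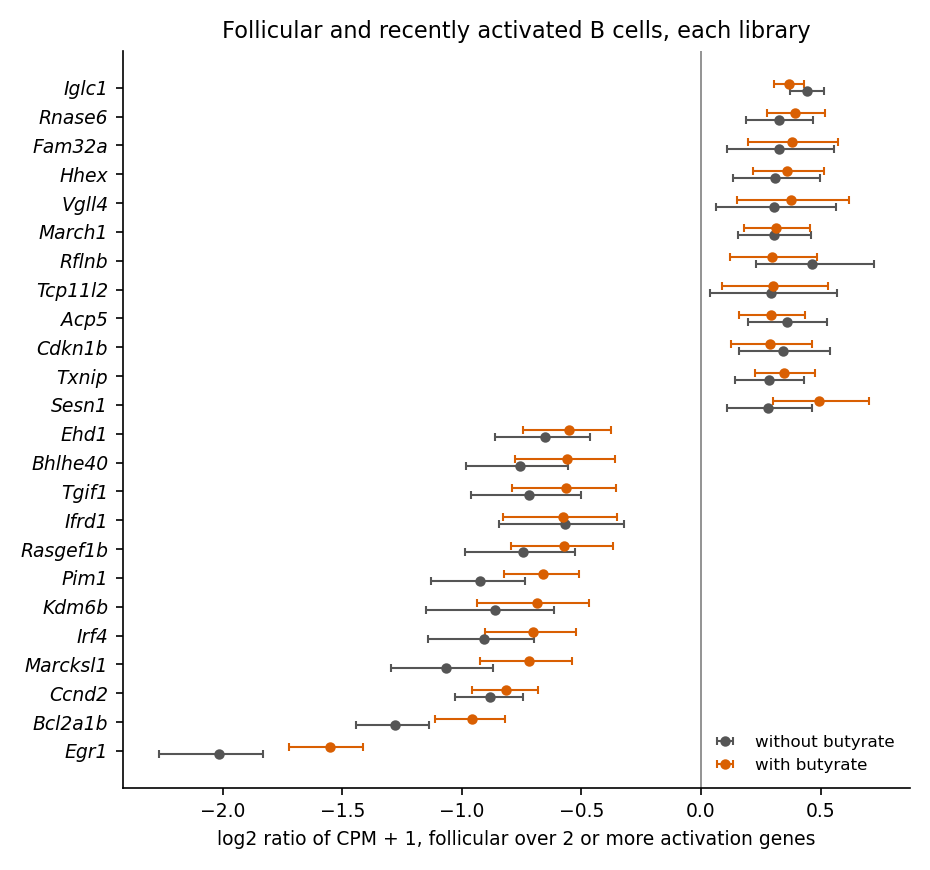
Log2 ratio of CPM plus 1 in follicular B cells over B cells with 2 or more activation genes (horizontal axis), in each library with counting intervals, for the 12 genes lowest and the 12 highest in follicular B cells. Egr1 stood lowest, at -2.02 w/o Butyrate and -1.55 w/ Butyrate, and the genes higher in follicular B cells lay between 0.28 and 0.49.

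B cells with none of Fcer2a, Ighd, Jchain, Mki67 and Top2a were few, 63 and 54, and the contrast with them was large. No limit on activation genes was set for them, unlike for follicular B cells. That limit was met by 52 of the 63 and 38 of the 54. The 63 and 54 cells had medians of 4580 and 7778 UMIs, against 4301 and 4513 in follicular B cells. The parts of depth and of activation genes were not tested. Of 2478 genes 23 were higher and 75 lower in follicular B cells by 1 or more in both libraries. Higher were Tmem108, at 72.3 against 15.5 CPM w/o Butyrate and 79.0 against 12.9 CPM w/ Butyrate, Zfp318, which is needed to express IgD and stood at 1.71 and 2.17, Cr2 at 1.34 and 1.56, and Bach2, a repressor of plasma cell fate, at 1.43 and 1.26. The compared cells were split by their Ighd and Fcer2a counts, so the value of Zfp318 is a description. Lower were S100a6, at 38.9 against 1687 CPM and 48.3 against 2037 CPM, S100a4, Ahnak and Zbtb32. The list of lower genes also held Chil3, Fcer1g and Fn1, which belong to myeloid cells. A single cell held all the Fn1 UMIs of the compared cells in each library and 78.9% and 100% of those of Chil3, and Fcer1g was in 11.1% of them in both. A single cell held 27.7% and 16.03% of their S100a6 UMIs. More of the lower genes also rested largely on 1 cell. It held 92.1% and 41.1% of the Fscn1 UMIs of the compared cells, 87.1% and 48.5% for Socs2, and 72% and 43.9% for Cd63.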

How the data were processed

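The authors deposited raw UMI counts per gene and cell from 10x Genomics 3′ libraries (v3 kit), processed with Cell Ranger 6.0.1 on mm10 per the labels. Each condition had 1 library of 4 pooled mice. 9681 and 8932 cells were deposited, and cells with at most 10% mitochondrial UMIs and 200 or more genes were kept. 25 barcodes were shared by both libraries, and 0 of them were follicular B cells in both. The authors removed doublets in their own analysis. Whether the deposited counts are from before or after that step was not given in the sources used here. No doublets were removed here for the main values, and as an alternative the cells with the highest Scrublet scores were removed. UMIs were summed over the cells of each library, scaled to CPM, and compared as log2 ratios after adding 1 CPM, for genes with a mean of 10 CPM or more. Intervals were exact binomial, exact Poisson or conditional binomial at 95%, share ratios had a normal interval on the log scale, and a count of 0 was given an upper limit of 3 counts. All cover counting error only. Cells were thinned to 2000 UMIs for shares of cells and variation. The members and the 34 gene lists were chosen with earlier results of these data known.

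Genes named by rule were the 12 highest and 12 lowest log2 ratios among genes at 50 CPM or more in 1 library, without genes of the rule, immunoglobulin variable segments, Gm and Rik names and genes with over 5% of UMIs in a single cell. Against other B cells they were the 12 each way by the smaller ratio of both libraries, and for variation the 15 highest. Which members of the lists are described was chosen after their values were seen. The ratio, interval and thinning steps were tested on simulated data. Python 3.11.15, scipy 1.17.1 and scanpy 1.11.5 were used. Some genes that these rules and lists hold are not reported here.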

Additional observations from a re-analysis of the deposited data

Results flagged for a closer look

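Of the 24 genes with the highest and lowest ratios, 2 lay on opposite sides of 0 in follicular B cells and in T cells of the same libraries, with both counting intervals apart from 0. Pim1 had log2 ratios, w/ Butyrate over w/o Butyrate, of 0.50 in follicular B cells and -0.32 in T cells, and Samsn1 of 0.41 and -0.62. The difference between the cell types was not tested, since each condition had 1 library.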

How the results depend on the processing

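The shares moved with the rule. The log2 ratio of the share of kept cells, 0.13 in the report, was 0.36 with Fcer2a and Ighd at 2 or more, 0.018 with no activation gene allowed, 0.23 with no limit on them and 0.35 after thinning to 2000 UMIs. For the share of B cells these were 0.32, -0.020, which reversed it, 0.19 and 0.28. Counts of genes called moved more. Genes called higher, 30 in the report, were 55 at 5% mitochondrial UMIs, 92 with 2 or more Fcer2a and Ighd UMIs, 140 with no activation gene, 17 with no limit on them, 4 and 48 with pseudocounts of 10 and 0.1, 139 after thinning, 56 with CPM totals free of ribosomal, mitochondrial and immunoglobulin genes, and 1 and 158 with a mean of 50 or 2 CPM required. Genes called lower, 35 in the report, were 68 with no activation gene, 16 with a pseudocount of 10, 91 after thinning, 87 with the reduced totals, and 9 and 142 at a mean of 50 or 2 CPM. The interferon median kept its sign under all 13 alternatives, between -0.57 and -0.32. The heat shock median, -0.18, was -0.10 with no activation gene, -0.11 with the reduced totals and -0.074 at 2 CPM. The MHC class I median lay between -0.17 and -0.085. That of MHC class II stayed between 0.09 and 0.13, and that of the IL-4 list between 0.05 and 0.23. Hsp90ab1 reversed to 0.016 with no activation gene, and the plasma cell list median to -0.10 at 50 CPM. Some list medians near 0 also changed sign after thinning, among them that of the histone deacetylases, from 0.04 to -0.02. The cause of these shifts was not tested. The alternatives for Fcer2a detection and for cells with 2 or more activation genes were added after seeing the data. No paired analysis was possible because each condition had 1 library.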
